A study of Mus musculus with 11 samples.

Results

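Cx3cl1 and Cxcl16 encode the transmembrane chemokines, and Cx3cr1 and Cxcr6 encode the receptors that bind them. All 4 of these genes were present among the 758 genes measured by nCounter, a hybridisation assay that counts mRNA molecules with barcoded probes, in MC38 tumors. The genes were chosen by name, as the transmembrane chemokines and their receptors. MC38 is an established mouse colon carcinoma line that forms tumors after subcutaneous injection into the flank of C57BL/6 mice. Tumor-bearing animals, 6 to 8 weeks old at inoculation, were treated from 5 days later with either hetIL-15 or PBS. A total of 6 tumors came from mice given hetIL-15, the heterodimer of IL-15 and its receptor alpha chain purified from HEK293 cells, by intraperitoneal injection of 3 µg (mass of the IL-15 chain) 3 times a week. Another 5 tumors came from mice given PBS (phosphate-buffered saline). Both groups carried the same implanted tumor line and were sampled at 1 time, 3 h after the fourth injection, so that earlier or later responses were not seen. The numbers of the labels name separate tumors, and which tumor came from which cage or day is not given.

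Chemokines are mostly small secreted proteins that direct leukocyte migration. CX3CL1 (fractalkine) and CXCL16 are built differently: their chemokine domain sits on a mucin-like stalk that spans the membrane, so the intact protein holds cells that carry the receptor, and proteases of the ADAM family release a soluble form that attracts them. CX3CR1 is found on monocytes, tissue macrophages, NK cells and cytotoxic effector T cells, while CXCR6 is found on activated and tissue-resident T cells, NKT cells and innate lymphoid cells. In tumors the CXCL16 and CXCR6 pair is known for retaining cytotoxic T cells beside antigen-presenting cells, and CX3CR1 marks monocyte-derived cells and effector lymphocytes.

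Windows around the annotated transcription start, from 250 bases before to 50 bases after it, were available for 3 of the 4 genes and are shown. They are RefSeq sequence of mouse build GRCm38.p6, written 5′ to 3′ in the direction of the gene, and Cxcl16 was not matched. The windows lie at chr8:94771930-94772229 on the plus strand (Cx3cl1), chr9:120068247-120068546 on the minus strand (Cx3cr1) and chr9:123806227-123806526 on the plus strand (Cxcr6). Capitals mark the letters of a TATA box (TATAAA) or a CCAAT box, searched on both strands. Whether they act as promoter elements at these starts was not tested.
Cx3cl1: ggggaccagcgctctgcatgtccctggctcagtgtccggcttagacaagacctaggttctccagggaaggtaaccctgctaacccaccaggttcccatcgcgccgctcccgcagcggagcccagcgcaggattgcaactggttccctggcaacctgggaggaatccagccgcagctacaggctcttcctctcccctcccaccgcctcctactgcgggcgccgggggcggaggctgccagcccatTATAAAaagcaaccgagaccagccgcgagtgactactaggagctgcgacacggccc
Cx3cr1: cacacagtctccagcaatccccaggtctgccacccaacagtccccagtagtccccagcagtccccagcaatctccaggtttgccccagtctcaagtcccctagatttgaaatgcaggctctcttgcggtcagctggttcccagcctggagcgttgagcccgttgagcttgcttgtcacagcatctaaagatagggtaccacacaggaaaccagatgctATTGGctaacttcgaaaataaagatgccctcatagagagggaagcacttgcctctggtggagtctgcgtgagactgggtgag
Cxcr6: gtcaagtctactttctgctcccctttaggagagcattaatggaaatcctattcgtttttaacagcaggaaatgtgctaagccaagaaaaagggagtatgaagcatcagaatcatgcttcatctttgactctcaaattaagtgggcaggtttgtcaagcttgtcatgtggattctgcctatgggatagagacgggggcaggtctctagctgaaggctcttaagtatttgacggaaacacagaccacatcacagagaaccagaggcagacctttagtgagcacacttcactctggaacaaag
The Cx3cl1 window held TATAAA at bases −6 to −1 from the annotated start, a motif present in 13.6% of 32851 mouse windows of the same length. The Cx3cr1 window held a CCAAT box, read as ATTGG, at bases −32 to −28, and 37.4% of windows held that motif on either strand. Neither motif was found in the Cxcr6 window. A STAT motif (TTCNNNGAA, in 8.3% of windows) and an ETS motif (GGAAGT, in 23.8%) were searched in the same way, and their letters did not occur in these 3 windows.

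None of the 4 genes passed the test between hetIL-15 and PBS tumors (limma, Benjamini-Hochberg adjusted p under 0.05 over 758 genes), against 2.11% of all genes, which were 13 higher and 3 lower in hetIL-15 tumors. The receptors had the more negative differences. Cx3cr1 had a log2 difference of −0.71 and Cxcr6 of −0.47, and both were among the genes with a lower mean at an unadjusted p under 0.05, a group that held 4.49% of all genes. The ligands were divided, with a log2 difference of 0.45 for Cx3cl1 and −0.16 for Cxcl16, and neither reached that unadjusted level, at which 7.39% of all genes had a higher mean. In none of the 4 genes were the hetIL-15 and PBS tumors fully apart, as they were for 2.51% of all genes.

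Values are given on the authors' log2 scale after quantile normalization, which gives every tumor nearly the same distribution of values. They order tumors within a gene. Levels of different genes are not set against each other, since probes differ in efficiency. At the low end of the scale many genes share a value within a tumor. Cx3cl1 shared its value with 1 to 29 other genes per tumor and Cxcr6 with 3 to 14, whereas Cx3cr1 shared it with 0 to 7 and Cxcl16 with 0 to 1. The gap to the next value above or below reached 0.45 on the log2 scale for Cx3cl1 and 0.19 for Cxcr6, against 0.07 for Cx3cr1 and 0.03 for Cxcl16, so the values of Cx3cl1 and Cxcr6 are coarser.

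Cx3cl1, the ligand made by endothelial and epithelial cells, had log2 values of 4.91, 6.46, 5.78, 6.33, 6.20 and 5.73 in hetIL-15 tumors 1 to 6, against 5.75, 5.47, 5.85, 6.02 and 4.17 in PBS tumors 1 to 5. A total of 3 hetIL-15 tumors (2, 4 and 5) lay above every PBS tumor, hetIL-15 tumor 1 lay below all PBS tumors but one, and PBS tumor 5 was the lowest of all 11. The mean was 5.90 ± 0.57 in hetIL-15 tumors and 5.45 ± 0.74 in PBS tumors (SD, n = 6 and n = 5). This is a 1.37-fold ratio, with a log2 difference of 0.45 ± 0.37 (SE), a 95% interval from −0.36 to 1.26 and an adjusted p of 0.732 (limma). The difference rested mostly on 1 library. Without PBS tumor 5 it was 0.13.

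Cxcl16, the ligand of antigen-presenting cells that was also described as a scavenger receptor for oxidised lipoprotein, had log2 values of 10.17, 9.86, 10.07, 9.97, 9.56 and 9.94 in hetIL-15 tumors 1 to 6, against 10.17, 10.27, 10.12, 9.75 and 10.12 in PBS tumors 1 to 5. Apart from hetIL-15 tumor 5 and PBS tumor 4, the low tumor of each group, the tumors spanned 9.86 to 10.27. The mean was 9.93 ± 0.21 in hetIL-15 tumors and 10.09 ± 0.20 in PBS tumors (SD, n = 6 and n = 5). The log2 difference was −0.16 ± 0.13 (SE), with a 95% interval from −0.44 to 0.13 and an adjusted p of 0.746 (limma). It was the narrowest interval of the 4 genes, and it leaves room for a PBS mean above the hetIL-15 mean by up to 0.44 on the log2 scale. Without hetIL-15 tumor 5 the difference was −0.08, without PBS tumor 4 it was −0.24, and scaled to the housekeeping genes it was −0.07.

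Cx3cr1, the receptor for CX3CL1, had log2 values of 6.88, 6.30, 7.36, 6.38, 7.20 and 7.05 in hetIL-15 tumors 1 to 6, against 7.09, 7.70, 7.71, 7.11 and 8.26 in PBS tumors 1 to 5. A total of 4 of the 6 hetIL-15 tumors lay below every PBS tumor, and 3 of the 5 PBS tumors lay above every hetIL-15 tumor. Overlap came from hetIL-15 tumors 3 and 5 and PBS tumors 1 and 4. The mean was 6.86 ± 0.43 in hetIL-15 tumors and 7.57 ± 0.49 in PBS tumors (SD, n = 6 and n = 5). This is a fold of 0.611, with a log2 difference of −0.71 ± 0.26 (SE), a 95% interval from −1.29 to −0.13 and an adjusted p of 0.318 (limma). The exact two-sided Mann-Whitney test gave p = 0.0519, and 0.463 after adjustment over all genes. Over all 758 genes, 19 had a more negative difference. When each tumor was left out in turn the difference lay between −0.83 and −0.54, the smallest being without PBS tumor 5. In MC38 tumors as in other bulk tissue, fewer cells of a type and less RNA per cell cannot be told apart.

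Cxcr6, the receptor for CXCL16, had log2 values of 5.64, 5.21, 5.71, 5.78, 5.50 and 5.53 in hetIL-15 tumors 1 to 6, against 5.75, 6.57, 6.34, 5.73 and 5.75 in PBS tumors 1 to 5. A total of 5 of the 6 hetIL-15 tumors lay below every PBS tumor, but PBS tumors 1, 4 and 5 sat only just above them and below hetIL-15 tumor 4, and PBS tumors 2 and 3 lay above all others. The mean was 5.56 ± 0.20 in hetIL-15 tumors and 6.03 ± 0.40 in PBS tumors (SD, n = 6 and n = 5). This is a fold of 0.723, with a log2 difference of −0.47 ± 0.18 (SE), a 95% interval from −0.86 to −0.07 and an adjusted p of 0.331 (limma). By the exact two-sided Mann-Whitney test p was 0.0260, and 0.410 after adjustment over all genes. That test uses the order of the tumors. HetIL-15 tumor 3 and PBS tumors 1, 4 and 5 were closer together than the smallest step between values of this gene, 0.042. Over all 758 genes, 52 had a more negative difference. When each tumor was left out in turn the difference lay between −0.54 and −0.33, the smallest being without PBS tumor 2. The unadjusted p was above 0.05 without hetIL-15 tumor 2, PBS tumor 2 or PBS tumor 3, and it was 0.118 when values were scaled to the housekeeping genes (log2 difference −0.38).

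**Figure D1:**
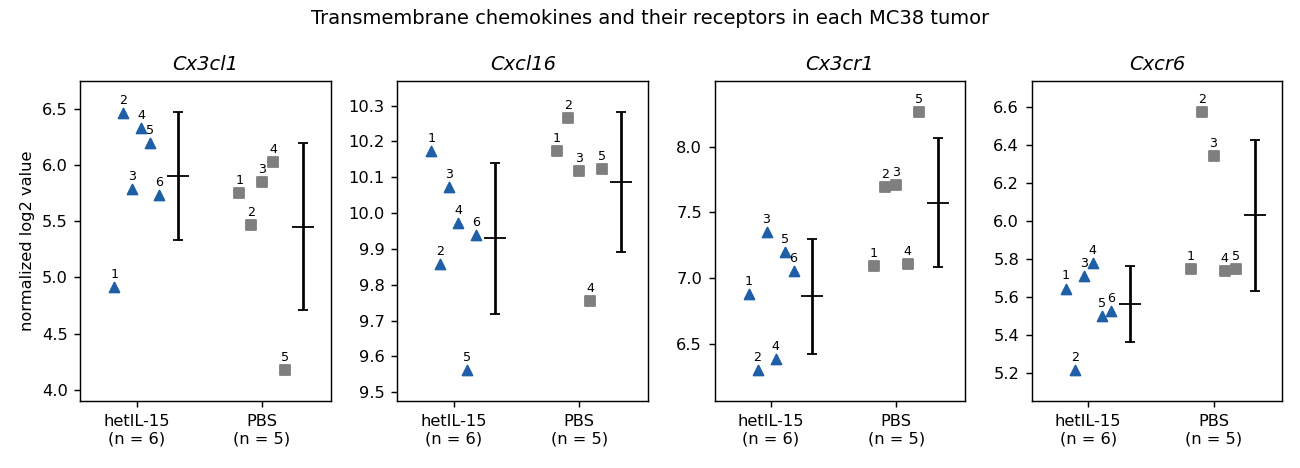
Normalized log2 value of Cx3cl1, Cxcl16, Cx3cr1 and Cxcr6 in each tumor (triangles, hetIL-15, n = 6; squares, PBS, n = 5; numbers are replicates; bars, mean ± SD; each panel has its own vertical scale). In Cxcr6, 5 of the 6 hetIL-15 tumors lie below every PBS tumor. HetIL-15 tumor 3 (5.71) and PBS tumors 1, 4 and 5 (5.73 to 5.75) are there closer together than the smallest step between values, 0.042. In Cx3cl1 PBS tumor 5 lies lowest at 4.17.

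Leaving out each tumor in turn changed the sign of no difference in these 4 genes, and none passed the adjusted threshold under any of the 20 alternatives fitted for each. Across those alternatives the adjusted p ranged from 0.541 to 1 for Cx3cl1, from 0.555 to 1 for Cxcl16, from 0.226 to 1 for Cx3cr1 and from 0.228 to 1 for Cxcr6. PBS tumors 4 and 5 stood apart from the other 9 on the first principal component of all genes (−8.48 and −12.3, against −4.06 to 9.42). With both left out, the log2 difference was 0.22 for Cx3cl1, −0.26 for Cxcl16, −0.64 for Cx3cr1 and −0.66 for Cxcr6. The order of the receptors by difference thus depended on those tumors.

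**Figure D2:**
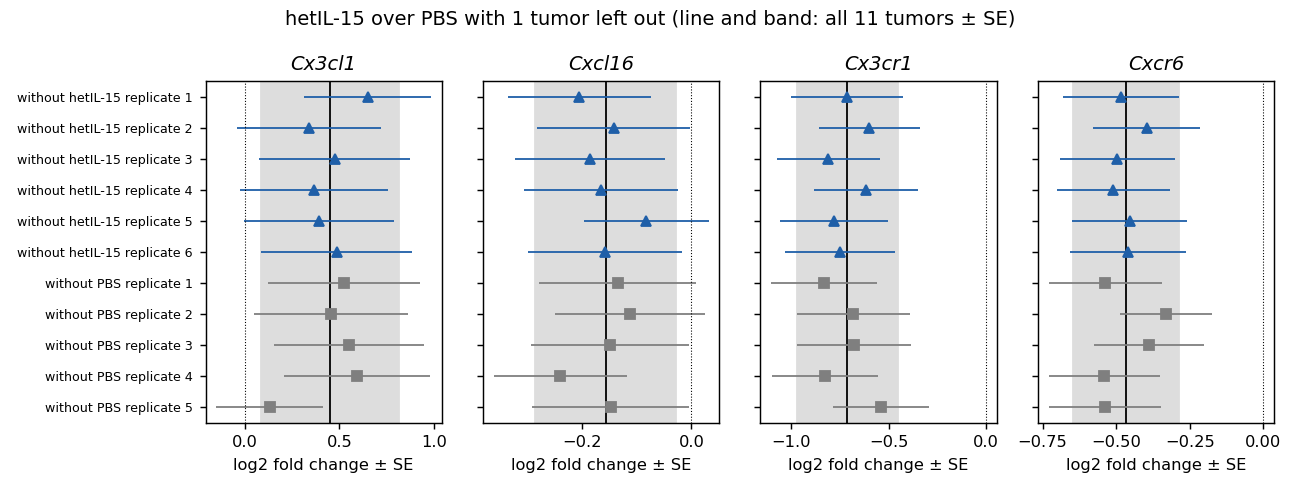
Log2 difference of hetIL-15 over PBS tumors (± SE) for each gene with 1 tumor left out, against the value from all 11 tumors (black line; grey band, ± SE; dotted line, no difference; each panel has its own scale). Cx3cl1 ranges from 0.13 without PBS tumor 5 to 0.65 without hetIL-15 tumor 1, and Cx3cr1 and Cxcr6 stay below 0 throughout.

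A difference between ligand and receptor within a tumor does not move with the scaling of that tumor, and only its change between groups can be read. Cx3cl1 minus Cx3cr1 was −1.97, 0.16, −1.57, −0.05, −1.005 and −1.32 in hetIL-15 tumors 1 to 6, against −1.35, −2.23, −1.86, −1.09 and −4.09 in PBS tumors 1 to 5, on the log2 scale. The mean was −0.96 ± 0.85 in hetIL-15 tumors and −2.12 ± 1.19 in PBS tumors (SD, n = 6 and n = 5), with 3 hetIL-15 tumors above every PBS tumor. The group difference of 1.16 became 0.67 without PBS tumor 5, the tumor with the lowest ligand and the highest receptor value of all 11. For Cxcl16 minus Cxcr6 the mean was 4.37 ± 0.21 in hetIL-15 tumors, with a range from 4.06 to 4.65, and 4.06 ± 0.34 in PBS tumors, with a range from 3.69 to 4.43 (SD, n = 6 and n = 5). Its group difference of 0.31 lay between 0.22 and 0.40 with single tumors left out. These differences were not tested, and the tests of single genes do not cover them.

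**Figure D3:**
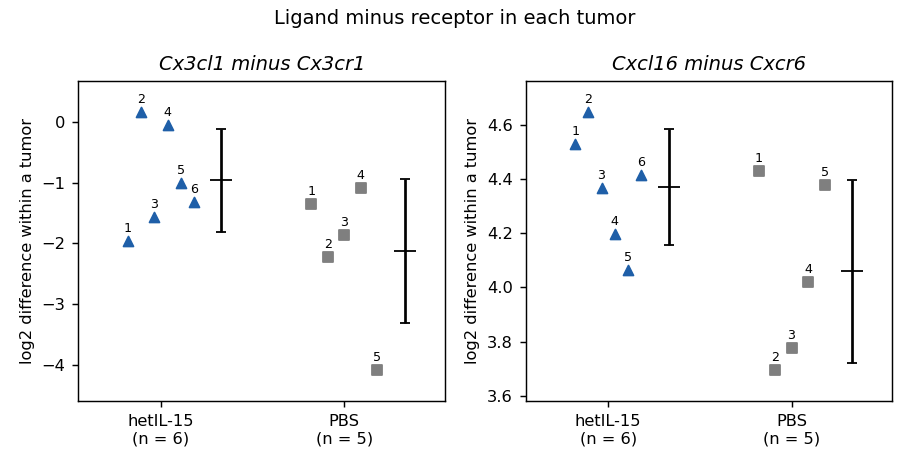
Log2 value of each ligand minus that of its receptor in the same tumor (triangles, hetIL-15, n = 6; squares, PBS, n = 5; numbers are replicates; bars, mean ± SD). Both differences have the higher mean in hetIL-15 tumors, by 1.16 for Cx3cl1 minus Cx3cr1 and by 0.31 for Cxcl16 minus Cxcr6, and the groups overlap in both.

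Whether the 4 genes varied together among tumors of a group was examined after removing the group means, for all 6 pairs over 11 tumors. None passed after adjustment over the pairs by a two-sided permutation test within groups. The pair farthest from 0 was Cx3cl1 with its receptor Cx3cr1, and it was negative (Pearson r = −0.654, permutation p = 0.0434, adjusted p = 0.26; Spearman rho = −0.627, permutation p = 0.0578, adjusted p = 0.205). Without PBS tumor 5 and hetIL-15 tumor 1, farthest from the median of Cx3cl1, r was −0.74. Without hetIL-15 tumor 1 alone, r was −0.778 with an adjusted permutation p of 0.0356, without PBS tumor 5 alone it was −0.433, and without PBS tumors 4 and 5 it was −0.395. Within the 6 hetIL-15 tumors r was −0.428 (exact permutation p = 0.403). Cxcl16 with its receptor Cxcr6 was positive (r = 0.476, permutation p = 0.158, adjusted p = 0.315; rho = 0.556, permutation p = 0.0826, adjusted p = 0.205), and r was 0.511 without PBS tumor 4 and hetIL-15 tumor 5. Within the hetIL-15 tumors it was 0.462 (exact permutation p = 0.351). With 1 tumor left out, r of Cxcl16 with Cxcr6 lay between 0.349 and 0.572, and it was 0.34 without PBS tumors 4 and 5. Scaled to the housekeeping genes, which takes the same value from both genes of a tumor, r was 0.709 over the 11 tumors (adjusted permutation p = 0.0506). The signs of these ligand and receptor relations thus differed, and the difference between them was not tested. The ligands Cx3cl1 and Cxcl16 had r = −0.491 and rho = −0.545 (permutation p = 0.117 and 0.102, adjusted 0.315 and 0.205), and r = −0.522 without PBS tumor 5 and hetIL-15 tumor 1, but r = −0.172 when values were scaled to the housekeeping genes. For the other pairs, of Cx3cl1 with Cxcr6, Cx3cr1 with Cxcl16 and Cx3cr1 with Cxcr6, r lay between 0.0159 and 0.258 and the adjusted permutation p of r between 0.765 and 0.979. Their rho lay between −0.223 and 0.269 (adjusted permutation p from 0.661 to 0.99), and without the 2 tumors farthest from the median of the first gene r was −0.44, 0.208 and −0.0932 for these pairs.

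The measured genes most like each of the 4 in this within-group variation were listed by Pearson r over 11 tumors, among 755 genes. They were taken as the highest and carry no test. For Cxcl16 these were C3, the central complement component (r = 0.975, rho = 0.891), Serping1, the inhibitor of the first complement component (r = 0.921, rho = 0.8), and the chemokine Ccl8 (r = 0.918, rho = 0.782). With the low tumors of Cxcl16, PBS tumor 4 and hetIL-15 tumor 5, left out, r was 0.91 for C3, 0.829 for Serping1 and 0.643 for Ccl8. For Cxcr6 they were genes of MHC class II antigen presentation, Cd74 (the invariant chain, r = 0.931, rho = 0.943), H2-Eb1 (r = 0.921, rho = 0.907) and H2-Aa (r = 0.909, rho = 0.897), and r was 0.851, 0.844 and 0.818 without PBS tumors 2 and 3. Cx3cl1 was most like Ifitm1, an interferon-induced membrane protein (r = 0.867, rho = 0.743), Il7, a lymphocyte survival cytokine (r = 0.861, rho = 0.845), and Cd34, a marker of endothelium and progenitors (r = 0.829, rho = 0.712). These relations rested more on its outlying tumors: without PBS tumor 5 and hetIL-15 tumor 1, r was 0.49 for Ifitm1, 0.697 for Il7 and 0.408 for Cd34. Cx3cr1 had the lowest top values, with the lymphocyte chemokine receptor Cxcr3 (r = 0.755, rho = 0.77), Cfp, the complement regulator properdin (r = 0.712, rho = 0.579), and Pnma1 (r = 0.693, rho = 0.633). Without PBS tumor 1 and hetIL-15 tumor 2, r was 0.633, 0.609 and 0.901 for these genes. None of these 12 genes passed the test between groups.

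**Figure D4:**
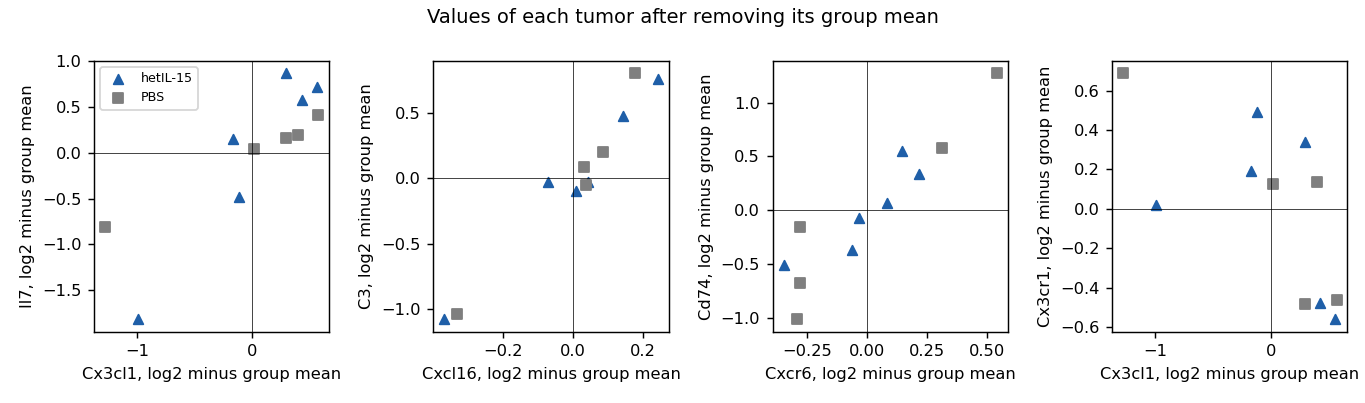
Log2 values minus the group mean in each tumor (triangles, hetIL-15, n = 6; squares, PBS, n = 5), for Il7 against Cx3cl1, C3 against Cxcl16, Cd74 against Cxcr6 and Cx3cr1 against Cx3cl1. The first 3 panels show partners picked for high r (0.861, 0.975 and 0.931), with the 2 lowest tumors setting much of the range for Cxcl16, and the last shows the negative relation of ligand and receptor (r = −0.654).

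Among the other chemokine genes, 2 of 33 ligands and 1 of 15 receptors passed the test, all higher in hetIL-15 tumors, and none was lower. Xcl1, the ligand that attracts XCR1-bearing dendritic cells, had a mean of 8.67 ± 0.39 in hetIL-15 tumors and 6.73 ± 0.34 in PBS tumors (SD, n = 6 and n = 5; log2 difference 1.95 ± 0.21 SE, limma adjusted p = 0.00153). Ccl7, a monocyte attractant, had a log2 difference of 0.59 ± 0.10 (SE, limma adjusted p = 0.0162, and 0.104 without PBS tumors 4 and 5). Ccr1, a receptor of CCL7 and other inflammatory chemokines, had 0.61 ± 0.13 (SE, limma adjusted p = 0.0356), a call lost in 10 of the 11 fits with 1 tumor left out. The median log2 difference was −0.03 over these ligands and −0.01 over these receptors, beside −0.03 over all 758 genes. Placed among all 35 ligands by difference, Cx3cl1 was the 29th from the lowest and Cxcl16 the 9th. Of all 17 receptors, Cx3cr1 had the most negative difference and Cxcr6 the next.

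**Figure D5:**
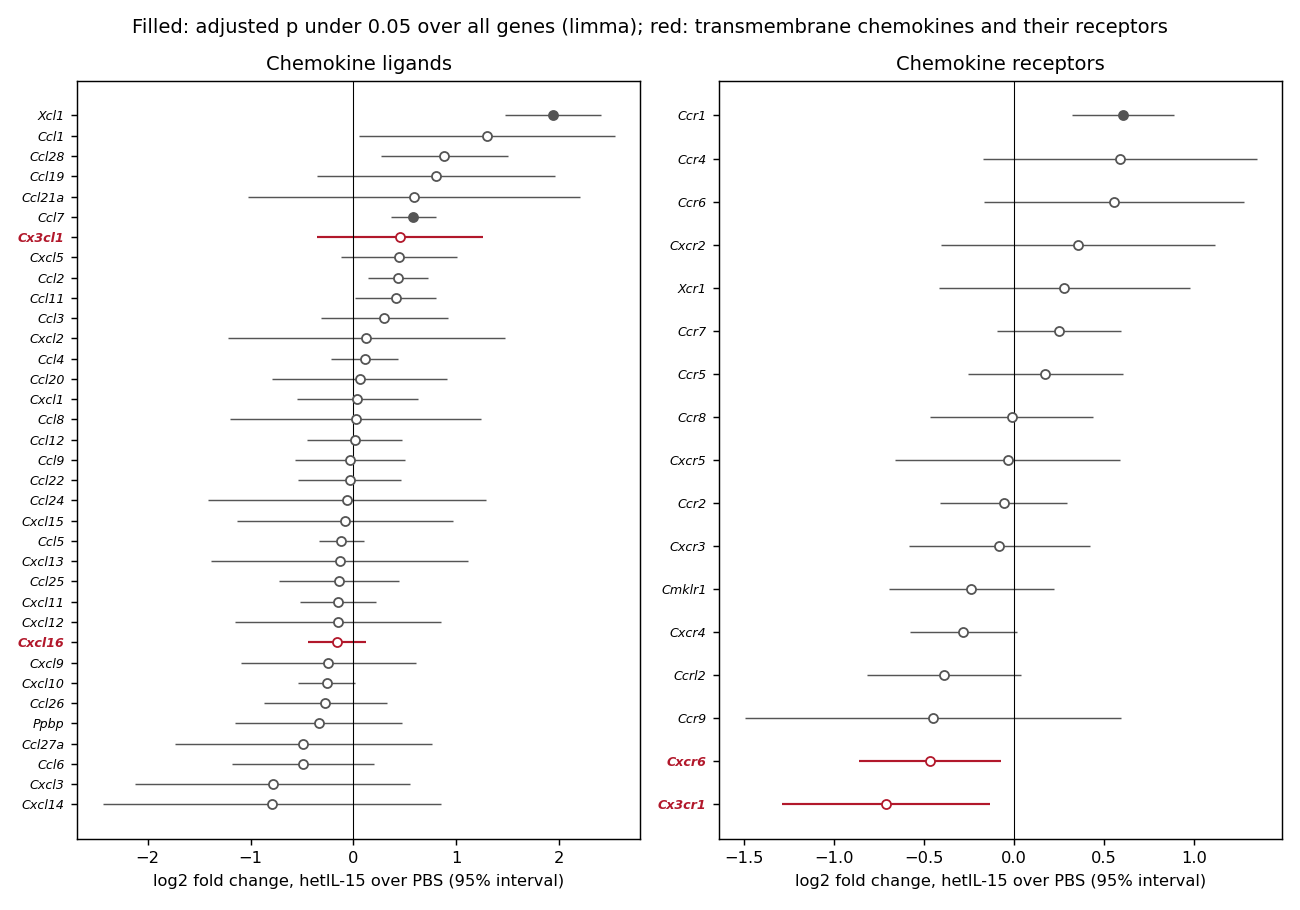
Log2 difference of hetIL-15 over PBS tumors with its 95% interval for the 35 chemokine ligands and 17 receptors measured (red, the transmembrane chemokines and their receptors; filled, limma adjusted p under 0.05 over 758 genes). The filled genes are Xcl1, Ccl7 and Ccr1, and Cxcr6 and Cx3cr1 lie at the bottom of the receptors with intervals that do not reach 0.

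No measured gene passed the test in the lists of inducers of the ligands, integrin and adhesion genes, or scavenger receptors. Whether each listed gene acts on these chemokines in the tumors was not tested. Of 14 measured inducers of the ligands and their signalling genes, 0 passed by limma's adjusted p and 2 had an unadjusted p under 0.05, Ifng with a log2 difference of 0.92 ± 0.32 (SE, adjusted p = 0.291) and Ifngr1, a chain of its receptor, with 0.26 ± 0.10 (SE, adjusted p = 0.358). The median of the 14 was 0.05. Of 15 integrin and adhesion genes, 0 passed and 1 had an unadjusted p under 0.05. Those with the smallest p were Itga6, a laminin-binding integrin chain (0.34 ± 0.14 SE, limma adjusted p = 0.358), and Itga4, the chain that binds VCAM-1 (−0.48 ± 0.23 SE, limma adjusted p = 0.471), with a median of −0.04 over the 15. Of 4 scavenger receptors, 0 passed and 0 had an unadjusted p under 0.05. Msr1 had 0.23 ± 0.17 and Marco 0.60 ± 0.63 (SE; limma adjusted p = 0.66 and 0.788).

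Markers of the cells that could carry these RNAs are given beside them, as sums of values off the log2 scale. A sum weighs the probes with the highest values most. Of 9 NK cell markers, 2 passed and were higher in hetIL-15 tumors, Ncr1 (log2 difference 1.10 ± 0.19 SE, limma adjusted p = 0.0162) and Klrc1 (1.32 ± 0.25 SE, limma adjusted p = 0.0227). Klrc1 lost its call without hetIL-15 tumor 3 or 4 or PBS tumor 4 or 5, and without PBS tumors 4 and 5 together the limma adjusted p was 0.114 for Ncr1 and 0.145 for Klrc1. A total of 7 of the 9 had an unadjusted p under 0.05 with a higher mean, and the sum ranged from 1190 to 1540 in hetIL-15 tumors and from 729 to 1040 in PBS tumors. NK cells can carry both Cx3cr1 and Cxcr6, whose differences were negative without passing the test. The part of NK cells in those values was not tested. Of 16 T cell markers, 0 passed and 0 had an unadjusted p under 0.05, with a median difference of 0.15 and sums from 642 to 834 in hetIL-15 tumors and from 529 to 882 in PBS tumors (Cd3g 0.39 ± 0.22 and Icos 0.54 ± 0.34 SE; limma adjusted p = 0.55 and 0.624). Of 15 macrophage and monocyte markers, 0 passed and 0 had an unadjusted p under 0.05, with a median of 0.0003 and sums from 11300 to 19800 in hetIL-15 tumors and from 11600 to 18200 in PBS tumors. Among 7 dendritic cell markers 0 passed and 2 had an unadjusted p under 0.05 with a lower mean, the median was 0.21, and sums ranged from 502 to 603 in hetIL-15 tumors and from 448 to 653 in PBS tumors. These were Itgax, the CD11c integrin, with −0.76 ± 0.20 (SE, limma adjusted p = 0.126), and the transcription factor Batf3, with −0.37 ± 0.17 (SE, limma adjusted p = 0.416). Itgax passed only in the alternative without PBS tumor 5 (limma adjusted p = 0.0425). By direction the list was divided, with 4 positive differences (Xcr1 0.28, Itgae 0.37, Irf8 0.21 and Ccr7 0.25) and 3 negative ones.

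Endothelial cells are a main source of Cx3cl1. Of their 9 markers 0 passed, the median was −0.23, and sums ranged from 7630 to 9130 in hetIL-15 tumors and from 6700 to 8180 in PBS tumors. The sum is mostly that of Cd34, whose mean was 12.75 ± 0.12 in hetIL-15 tumors and 12.50 ± 0.14 in PBS tumors (SD, n = 6 and n = 5), and which was the only 1 of the 9 with a positive difference, against 8 with a negative one. Cd34 (0.25 ± 0.10 SE, limma adjusted p = 0.327) and Tek (−0.58 ± 0.32 SE, limma adjusted p = 0.54) had the smallest p, and only Cd34 had an unadjusted p under 0.05. After removing group means, r of Cd34 with Cx3cl1 was 0.829, but 0.408 without PBS tumor 5 and hetIL-15 tumor 1. Cd34 was picked for that r, as 1 of the 3 highest among 755 genes. No r is given for the other 8 markers, so this value does not stand for the endothelial list. Of 6 genes listed as epithelial and tumor cell markers 0 passed and 0 had an unadjusted p under 0.05, with a median of 0.05. Their sums ranged from 426 to 671 in hetIL-15 tumors and from 440 to 619 in PBS tumors. Cd44 had −0.68 ± 0.34 and Cdh1 0.52 ± 0.45 (SE, limma adjusted p = 0.481 and 0.752). Whether Cd44 RNA came from tumor cells or from other cells of the tumor was not tested. Of 7 B cell markers 0 passed and 0 had an unadjusted p under 0.05, with a median of −0.31 and sums from 111 to 184 in hetIL-15 tumors and from 126 to 171 in PBS tumors (Cd79b −0.42 ± 0.21 SE, limma adjusted p = 0.481). Ptprc, carried by all leukocytes, had means of 9.41 ± 0.31 in hetIL-15 tumors and 9.42 ± 0.40 in PBS tumors (SD, n = 6 and n = 5), and its difference of −0.01 became 0.07 when scaled to housekeeping genes. On the log2 scale, single values reached down to 1.07 among T cell markers, 1.79 among NK cell markers and 1.92 among endothelial and B cell markers. Whether such low values lie above background was not tested. The part that NK, dendritic or endothelial cell content had in the values of the 4 genes was not tested either. The epithelial markers Epcam and Cdh1 were measured, and the keratins and Cdx2 were not, so the tumor cells themselves were marked by few genes.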

How the data were processed

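RNA from 11 MC38 tumors was profiled on the nCounter PanCancer Immune panel. Before deposit, the authors dropped genes of low expression, took logarithms and applied quantile normalization. The deposited log2 values of 758 genes (738 endogenous, 20 housekeeping) were used as given. A deposited table of probe counts was read only for probe classes and accessions, because its 11 columns match no tumor by name. Depth per tumor is therefore unknown, and no count model was fitted.

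The treatment in the labels gave the groups. Each gene was tested by limma 3.58.1 (lmFit, eBayes; R 4.3.3) without covariates, two-sided, with Benjamini-Hochberg adjustment over 758 genes and a threshold of 0.05. Bonferroni with a 2-fold change, which the methods name, was an alternative, as were exact Mann-Whitney tests, scaling to housekeeping genes or the median, a filter on the lowest 10% of genes, an intensity trend, array weights, a replicate block and tumors left out. Correlations used 100000 permutations within groups (Python 3.11.15, scipy 1.17.1). The limma p-values set a group difference against the spread between these tumors within groups. The procedure was tested on simulated data.

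The 4 genes and all lists were chosen with earlier results of these data known. Named genes were the 4 genes, the 3 most like each by r, and in each list those past the threshold or else the 2 with the smallest p; 1 gene chosen by this rule is not reported here. The accessions of all 4 matched RefSeq symbols.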

Additional observations from a re-analysis of the deposited data

How the results depend on the processing

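Cx3cl1, Cxcl16, Cx3cr1 and Cxcr6 kept their direction and stayed short of the adjusted threshold under every alternative run. With 1 tumor left out, the log2 difference lay between 0.13 and 0.65 for Cx3cl1, −0.24 and −0.08 for Cxcl16, −0.83 and −0.54 for Cx3cr1 and −0.54 and −0.33 for Cxcr6. An unadjusted p under 0.05 held in 10 of those 11 fits for Cx3cr1 and in 8 for Cxcr6, but not for Cxcr6 with scaling to housekeeping genes or with the replicate block. The count of all genes called, 16, was 4 by Bonferroni with a 2-fold change, 5 without PBS tumors 4 and 5, and 8 to 15 with 1 tumor left out (8 without hetIL-15 tumor 4, 9 without PBS tumor 4, and 10 without PBS tumor 1, PBS tumor 5 or hetIL-15 tumor 2). By exact Mann-Whitney tests it was 0, but their smallest possible p with these group sizes is 0.00433, which 19 genes had and which adjusts to 0.173, so that this count says nothing on stability. For Cx3cl1 with Cxcr6, r was −0.308 without PBS tumors 4 and 5 and −0.369 to 0.17 with 1 tumor left out. For Cx3cr1 with Cxcl16 it was −0.0431 and −0.0929 to 0.469. For Cx3cl1 with Cx3cr1 it was −0.395 and −0.778 to −0.433. Ptprc was 0.0733 when scaled to housekeeping genes and −0.14 to 0.10 with 1 tumor left out. The 22 genes chosen from the lists, Ptprc among them, held 5 called genes (Xcl1, Ccl7, Ccr1, Ncr1 and Klrc1), which lost the call in 33 of 100 alternatives, and 17 others, of which Itgax gained a call in 1 alternative and Ptprc changed sign in 6. The causes were not tested. Coarse values at low signal limit Cx3cl1 and Cxcr6 most.

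Tumors that share a replicate number were not treated as pairs, since their deviations from the group means had correlations of −0.052 to 0.13, and the hetIL-15 tumor of the same number was the closest match for 1 of the 5 PBS tumors. With the replicate block, the log2 difference was 0.49 for Cx3cl1, −0.16 for Cxcl16, −0.75 for Cx3cr1 and −0.46 for Cxcr6 (limma adjusted p = 0.727, 0.752, 0.263 and 0.507), and 5 genes were called over all.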
